A study of Sus scrofa with 6 samples.

Results

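The genes described here are 8 core genes of the PI3K, AKT and mTOR pathway, measured by RNA sequencing in the hearts of Tibetan minipigs with chronic pressure overload. They were PIK3CA, PIK3R1, PDPK1, AKT1, AKT2, TSC2, MTOR and RPTOR, chosen by gene symbol, and all 8 were among the 13288 genes listed and the 11029 genes tested. The samples were ventricular tissue of 3 minipigs with descending aortic constriction (DAC), in which the aorta was narrowed by surgery to load the left ventricle, and of 3 minipigs with sham surgery. All were male Tibetan minipigs of no altered genotype that the sources describe, and tissue was collected 12 weeks after surgery. Their age is not given in the sources used here. The sham group was Sham 1, Sham 2 and Sham 3, and the DAC group was DAC 4, DAC 5 and DAC 6. Values are FPKM, in which the fragments of a gene are scaled to the length of its transcript and to the mapped fragments of the sample, so that levels of different genes can be set side by side. The comparison asked whether transcripts of this kinase pathway differ between hearts under chronic pressure overload and sham hearts.

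Class I PI3K is a lipid kinase made of a catalytic and a regulatory subunit, which growth factor and insulin receptors recruit to the cell membrane. The lipid it makes brings AKT together with the kinase PDPK1, which phosphorylates AKT, and AKT in turn inhibits the TSC complex, so that the GTPase RHEB can switch on the kinase complex mTORC1. In heart muscle this chain is known for its part in physiological growth, protein synthesis, glucose uptake and the restraint of autophagy. It is switched mainly by phosphorylation, so transcript levels give the amount of messenger RNA for each component and not the activity of the pathway.

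None of the 8 core genes passed the threshold of the study, an unadjusted P under 0.05, in limma's moderated test of log2(FPKM + 1), in which 939 genes (8.51% of those tested) did. The mean of 7 genes was lower in the DAC group and that of 1 gene, PIK3CA, was higher, with a median difference of -0.18 on the log2 scale against -0.02 over all genes tested. The smallest P of the 8 was 0.11 for PIK3R1, with a limma adjusted P of 0.644. The smallest limma adjusted P of any gene was 0.106. Only TSC2 had groups that did not overlap, all 3 DAC minipigs lying below all 3 sham minipigs, as in 8.91% of all genes tested. Summed over the 8 genes, FPKM was 161, 129 and 158 in the sham group and 125, 139 and 122 in the DAC group. Sham 2 lay inside the range of the DAC group in this sum.

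**Figure D1:**
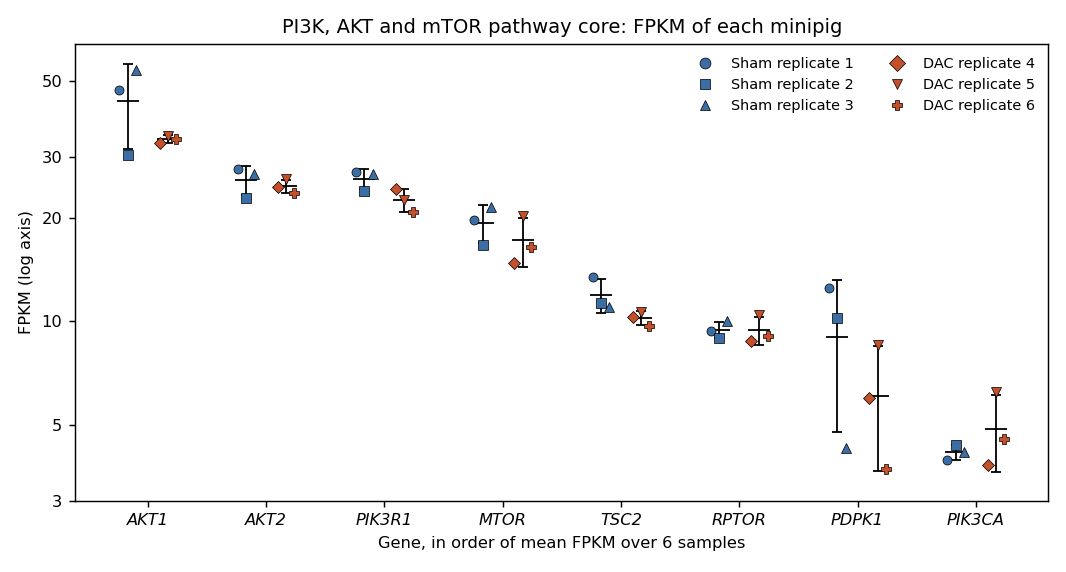
FPKM (log axis) of the 8 core genes in each of the 6 minipigs, with symbols for single animals and bars for the mean and SD of each group. AKT1 had the highest level in every minipig, the groups overlapped in all genes but TSC2, and PDPK1 ranged from 3.72 to 12.5 FPKM.

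The hearts themselves differed in several ways beside these genes. Of 8 fibroblast markers 5, COL1A1, COL1A2, COL3A1, POSTN and LUM, were called higher in the DAC group (3.25% of all genes were), while DCN, TCF21 and PDGFRA did not pass, and the 8 had a summed level of 687.6 to 779.6 FPKM against 481.8 to 555.1 in the sham group. Of 8 cardiomyocyte markers 6 were listed, and MYH6 and TTN were not. The 6 were abundant in every minipig, with sums of 12490 to 13510 FPKM in the sham group and 12080 to 15000 FPKM in the DAC group. RYR2 was the 1 of them called lower (5.27% of all genes were). Mitochondrially encoded genes held 24.01 to 25.26% of all FPKM in the sham group and 27.2%, 32.79% and 27.08% in DAC 4, DAC 5 and DAC 6. The part of cell composition and of the mitochondrial share in the differences below was not tested, and in bulk tissue fewer cells of a type and less RNA per cell cannot be told apart. FPKM gives no number of reads, so depth is unknown and the spread between minipigs is the only measure of precision.

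At the top of the chain, the PI3K subunits went in opposite directions in their group means, and neither passed the test. PIK3CA (ENSSSCG00000030413; Sscrofa11.1 chr13:117180544-117277232, plus strand) encodes the catalytic subunit p110 alpha, which makes the lipid signal. Its level was 3.95, 4.37 and 4.15 FPKM in Sham 1, Sham 2 and Sham 3 and 3.82, 6.22 and 4.54 FPKM in DAC 4, DAC 5 and DAC 6. DAC 5 stood above the other 5 minipigs, DAC 4 was the lowest of all, and the groups overlapped. The mean was 4.16 ± 0.208 FPKM in the sham group and 4.86 ± 1.23 FPKM in the DAC group (SD, n = 3 each), a log2 difference of 0.16 (SE 0.159, limma P = 0.334, adjusted P = 0.783, exact permutation P = 0.5). Without DAC 5, which also had the highest mitochondrial share, the log2 difference was 0.0047. A protein-coding gene in the RefSeq annotation, LOC110256340, overlaps the PIK3CA span, and its part in the PIK3CA values was not tested.

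PIK3R1 (ENSSSCG00000016958; Sscrofa11.1 chr16:46434873-46523609, plus strand) encodes the regulatory subunit p85 alpha, which stabilizes p110 and docks it on receptors. The 3 sham minipigs had 27.2, 23.9 and 26.8 FPKM, and the 3 DAC minipigs had 24.3, 22.6 and 20.8 FPKM. The groups overlapped only through Sham 2, which lay just below DAC 4. The means of 26.0 ± 1.8 FPKM and 22.5 ± 1.73 FPKM gave a log2 difference of -0.20 (SE 0.109, 95% confidence interval -0.45 to 0.06, limma P = 0.11, exact permutation P = 0.2). Within each minipig there was more PIK3R1 than PIK3CA transcript per length, 6.89, 5.48 and 6.47 times in the sham group and 6.35, 3.63 and 4.58 times in the DAC group. The ratio in DAC 4 lay inside the sham range and those in DAC 5 and DAC 6 below it. The exact permutation test of this ratio, two-sided with 3 minipigs against 3, gave P = 0.2, and P = 0.5 after adjustment over the 5 ratios computed. The smallest P such a test can give is 0.10.

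PDPK1 was the least uniform of the 8 genes. It encodes the kinase PDK1, which phosphorylates the activation loop of AKT and of several other kinases (ENSSSCG00000037719; Sscrofa11.1 chr3:39429931-39532583, minus strand). Its level was 12.5, 10.2 and 4.28 FPKM in the sham group and 5.99, 8.52 and 3.72 FPKM in the DAC group. Sham 3 and DAC 6 were far below the others of their group, and the highest level was 3.35 times the lowest. The means were 8.99 ± 4.22 and 6.07 ± 2.4 FPKM, with a log2 difference of -0.45, the widest interval of the 8 genes (-1.37 to 0.47) and P-values of 0.286 by limma and 0.4 by the exact permutation test. Its spread within groups was above that of 97.3% of all genes tested. Leaving out Sham 3 alone took the difference to -0.85, past the threshold of the limma test, while it was -0.18 without Sham 1, -0.19 without DAC 6 and -0.69 without DAC 5. In the annotation of the files, AMDHD2 lies on the same strand and shares 10424 bases with the PDPK1 span, 10.2% of it, so fragments there could have been assigned to either gene. AMDHD2, an enzyme of amino sugar breakdown, had 4.34, 5.21 and 5.48 FPKM in the sham group and 3.10, 3.99 and 4.89 FPKM in the DAC group. AMDHD2 was the highest of its group in Sham 3 and DAC 6, where PDPK1 was the lowest. A pseudogene in the RefSeq annotation, LOC102160979, also overlaps the PDPK1 span. The part of shared fragments in the PDPK1 values was not tested.

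**Figure D2:**
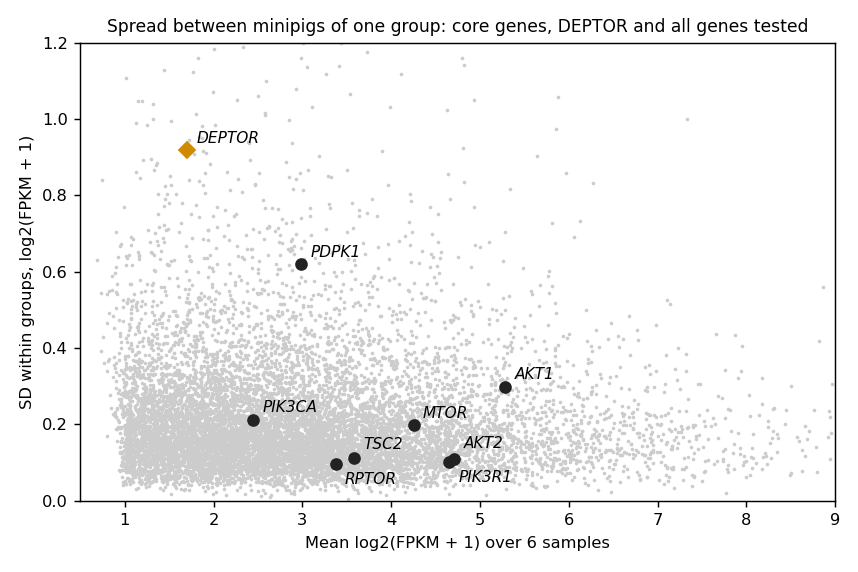
SD within groups against mean level, both of log2(FPKM + 1), for the 8 core genes (black), the mTOR inhibitor gene DEPTOR (orange) and the other genes tested (grey), with 79 genes outside the axes. PDPK1 lay above 97.3% and AKT1 above 81.1% of genes, and the other 6 core genes lay within the bulk.

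The AKT kinases differed in how evenly they were expressed. AKT1, the widely expressed isoform tied to growth and survival signals, is annotated on the minus strand of a scaffold that has no chromosome (ENSSSCG00000039139; bases 3039291 to 3061592). Its level was 47.2, 30.4 and 53.8 FPKM in the sham group and 32.9, 34.6 and 34.0 FPKM in the DAC group. Sham 1 and Sham 3 were above all DAC minipigs, while Sham 2 was the lowest of the 6, so the groups overlapped. The coefficient of variation was 27.6% among sham minipigs and 2.52% among DAC minipigs. The means were 43.8 ± 12.1 and 33.9 ± 0.854 FPKM, a log2 difference of -0.32 (SE 0.203, limma P = 0.155, adjusted P = 0.676, exact permutation P = 0.4). Without Sham 2 the log2 difference was -0.56, past the threshold of the limma test, and without Sham 3 it was -0.16, so single sham libraries moved the value both ways.

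AKT2, the isoform best known for insulin-stimulated glucose uptake, was even across all minipigs (ENSSSCG00000002989; Sscrofa11.1 chr6:48555789-48587919, minus strand). It had 27.8, 22.9 and 26.8 FPKM in the sham group and 24.5, 25.9 and 23.6 FPKM in the DAC group, so that the DAC values lay inside the sham range. The log2 difference was -0.06 with a 95% confidence interval of -0.32 to 0.20 (limma P = 0.597, exact permutation P = 0.5). The AKT2 to AKT1 ratio was 0.589, 0.754 and 0.498 in the sham group and 0.742, 0.748 and 0.694 in the DAC group. The ratio was lowest in Sham 1 and Sham 3, the minipigs with most AKT1, and Sham 2 exceeded all DAC minipigs (exact permutation P = 0.4, adjusted P = 0.6).

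TSC2 (ENSSSCG00000008040; Sscrofa11.1 chr3:39898922-39937371, minus strand) encodes tuberin, the part of the TSC complex that turns RHEB off and that AKT phosphorylates. Its level was 13.4, 11.3 and 11.0 FPKM in the sham group and 10.3, 10.6 and 9.69 FPKM in the DAC group. All DAC minipigs were below all sham minipigs, with Sham 3 and DAC 5 close to each other. The means of 11.9 ± 1.34 and 10.2 ± 0.482 FPKM gave a log2 difference of -0.20 (SE 0.113, limma P = 0.127, adjusted P = 0.654), and the exact permutation P was 0.1. Without Sham 1 the log2 difference was -0.11. TSC1, which encodes hamartin, the partner that stabilizes tuberin, had the same order of groups, with 16.0, 13.3 and 14.5 FPKM against 12.3, 12.6 and 12.9 FPKM (log2 difference -0.19, limma P = 0.106, adjusted P = 0.642, exact permutation P = 0.1). The TSC2 to TSC1 ratio ranged from 0.757 to 0.845 in the sham group and from 0.751 to 0.844 in the DAC group, a log2 difference of -0.01. TSC2 shares 534 bases with PKD1 (1.39% of the TSC2 span) and 2460 bases with NTHL1 (6.4%), both annotated on the plus strand. NTHL1 had 2.18, 2.46 and 2.2 FPKM in the sham group and 2.38, 2.71 and 1.94 FPKM in the DAC group. The log2 difference of NTHL1 was 0.02, and it was not called. PKD1, the polycystin 1 gene, was called lower in the DAC group, at 32.5, 24.5 and 30.7 FPKM against 24.4, 16.8 and 21.2 FPKM (log2 difference -0.48, limma P = 0.025, adjusted P = 0.553, exact permutation P = 0.1), and in 10 of 14 alternatives. Whether the counting used strand is not given in the sources used here, so reads from the shared bases cannot be told apart.

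MTOR encodes the kinase shared by the complexes mTORC1 and mTORC2 (ENSSSCG00000003413; Sscrofa11.1 chr6:71286989-71412888, minus strand). It had 19.7, 16.7 and 21.5 FPKM in the sham group and 14.8, 20.3 and 16.4 FPKM in the DAC group. Sham 3 was the highest and DAC 4 the lowest, and the ranges overlapped across most of their width. The log2 difference was -0.16 (SE 0.15, 95% confidence interval -0.52 to 0.19, limma P = 0.313, exact permutation P = 0.4). It was -0.07 without DAC 4, -0.08 without Sham 3, -0.26 without Sham 2 and -0.28 without DAC 5. In the RefSeq annotation the protein-coding gene ANGPTL7 overlaps the MTOR span, and its part in the MTOR values was not tested.

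RPTOR encodes Raptor, the scaffold that brings substrates to mTORC1 (ENSSSCG00000017139; Sscrofa11.1 chr12:1709126-1991560, minus strand), and its group means were the closest of the 8. The sham group had 9.37, 8.95 and 9.99 FPKM and the DAC group 8.78, 10.4 and 9.05 FPKM, with the highest and the lowest minipig both in the DAC group. The mean was 9.43 ± 0.524 FPKM in the sham group and 9.40 ± 0.85 FPKM in the DAC group (limma P = 0.953, exact permutation P = 1). The 95% confidence interval of the fold ran from 0.835 to 1.19 on the scale of FPKM + 1, so these data do not exclude a change of either sign within those bounds, and the sign of the small difference turned under 3 of the scalings tried. Per MTOR transcript, RPTOR was 0.476, 0.535 and 0.464 in the sham group and 0.591, 0.511 and 0.55 in the DAC group. DAC 4 and DAC 6 were above all sham minipigs and DAC 5 was inside their range (exact permutation P = 0.2, adjusted P = 0.5). Against RICTOR, the scaffold of mTORC2, RPTOR was 2.02, 1.98 and 2.21 times as high in the sham group and 1.8, 2.02 and 1.98 times as high in the DAC group (exact permutation P = 0.5). RICTOR itself was even, at 4.64, 4.53 and 4.52 FPKM in the sham group and 4.88, 5.13 and 4.57 FPKM in the DAC group.

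**Figure D3:**
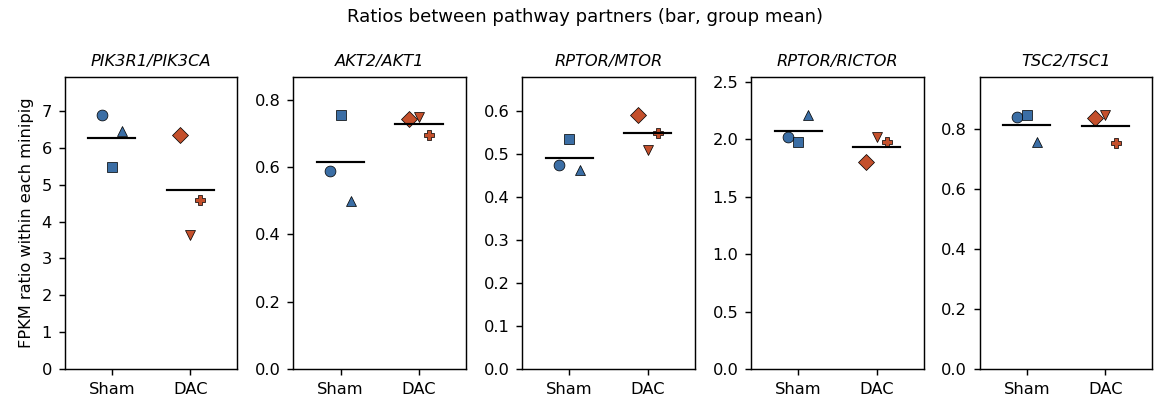
FPKM ratios between pathway partners within each minipig, with the mean of each group as a bar and a symbol for each animal. No ratio separated the groups completely, and the TSC2 to TSC1 ratio stayed between 0.751 and 0.845 in all 6 minipigs.

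The order of the 8 levels differed little between minipigs. By mean FPKM over the 6 samples it ran from AKT1 (38.8) through AKT2 (25.3), PIK3R1 (24.3), MTOR (18.3), TSC2 (11.1), RPTOR (9.42) and PDPK1 (7.53) to PIK3CA (4.51). AKT1 held rank 1, MTOR rank 4 and TSC2 rank 5 in all 6 minipigs. AKT1 lay above 91.6% and PIK3CA above 40.8% of the genes tested in mean level. AKT1 exceeded AKT2 by a geometric mean ratio of 1.51, PIK3R1 exceeded MTOR by 1.34, MTOR exceeded TSC2 by 1.65 and TSC2 exceeded RPTOR by 1.17, each in 6 of 6 minipigs. For each of these 4 pairs the exact sign-flip permutation test gave P = 0.0312, the smallest it can give with 6 samples. After adjustment over the 7 neighbouring pairs it was 0.0547, so no pair passed 0.05. The pairs were taken from the order in these same 6 samples, so the P-values are no independent check of that order. AKT2 and PIK3R1 did not keep 1 order in all minipigs, AKT2 being higher in 4 of 6 (ratio 1.04, exact permutation P = 0.312). The same held for RPTOR and PDPK1, with RPTOR higher in 4 of 6 (ratio 1.37, exact permutation P = 0.219), and for PDPK1 and PIK3CA, with PDPK1 higher in 5 of 6 (ratio 1.54, exact permutation P = 0.0938).

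Around the core, 7 lists with 128 further genes of the pathway and of its outputs were read in the same fit, of which 115 genes were listed and 111 tested. In the DAC group 2 of the 111 were called higher, 1.8% against 3.25% of all genes, and 7 were called lower, 6.31% against 5.27% of all genes. This balance depended on scaling: with mitochondrially encoded genes left out and the rest rescaled, 3 were called higher and 4 lower, and over all genes 500 were called higher and 407 lower in place of 358 and 581. The total of 9 called genes was 8.11% of the 111, close to the share over all genes, and their median difference was -0.04 on the log2 scale. The smallest limma adjusted P among them was 0.222. In 11 of the 111 genes all DAC minipigs lay below all sham minipigs, 9.91% against 8.91% of all genes. In 5 they lay above, as in 663 of all 11029 genes tested.

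**Figure D4:**
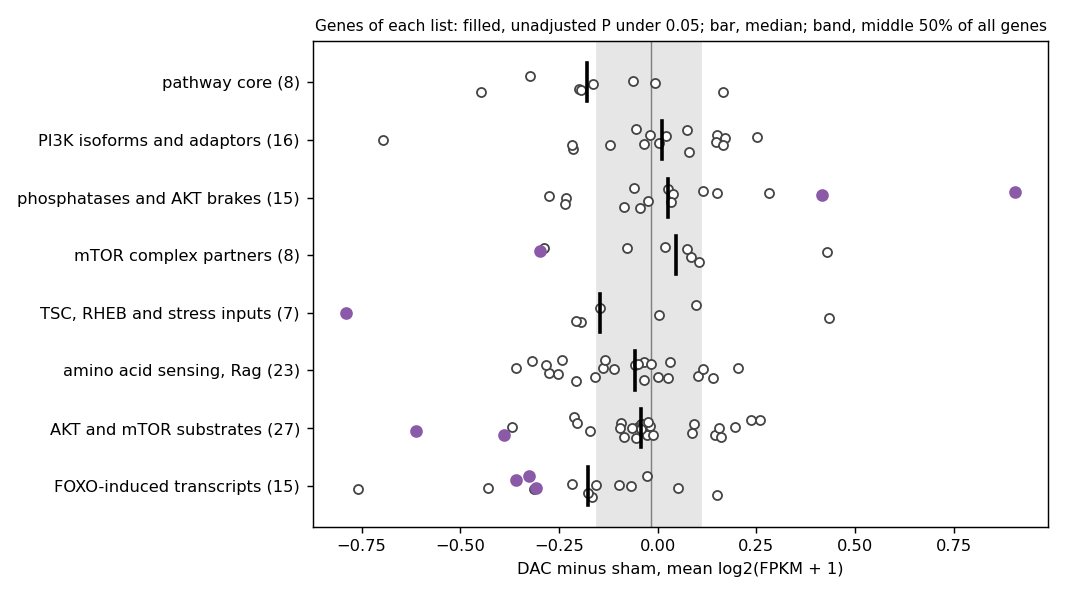
DAC minus sham difference in mean log2(FPKM + 1) for the core genes and the genes of the 7 pathway lists, with filled points for an unadjusted limma P under 0.05, a black bar for each median, and a grey band for the middle 50% of all genes tested. The core has no filled point and a median of -0.18, and the FOXO-induced transcripts have 3 filled points, all lower in the DAC group.

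None of the 16 tested PI3K isoforms and adaptors passed the test, and the smallest P was that of PIK3R3, which encodes the regulatory subunit p55 gamma. PIK3R3 had 4.01, 4.29 and 3.90 FPKM in the sham group and 3.00, 0.839 and 3.14 FPKM in the DAC group. DAC 5 was far below the others, and the groups did not overlap (log2 difference -0.70, limma P = 0.0537, adjusted P = 0.592, exact permutation P = 0.1). PIK3R3 was called in 5 of 13 alternatives, namely with median scaling, with quantile normalization and without DAC 4, DAC 5 or DAC 6, and without DAC 5 its log2 difference was -0.31. The list held 0 to 3 calls over the alternatives, 3 of them without DAC 4 and 2 without DAC 5.

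The 2 genes called higher (3.25% of all genes were) were both in the list of lipid phosphatases and candidate AKT brakes. Of this list 15 genes were tested. Whether PPP2R1B or TRIB1 acts on AKT in these hearts was not tested. PPP2R1B, a scaffold subunit of protein phosphatase 2A, which dephosphorylates AKT among many substrates, had 1.43, 1.27 and 0.97 FPKM in the sham group and 2.11, 1.87 and 1.90 FPKM in the DAC group. All DAC minipigs were above all sham minipigs, as in 663 of all 11029 genes tested (log2 difference 0.42, SE 0.123, limma P = 0.0112, adjusted P = 0.505, exact permutation P = 0.1). The gene was called in all 13 alternatives in which it was tested. Its log2 difference was 0.65 at the smaller pseudocount of 0.1. PPP2R1B was low, above 10.3% of the genes tested in mean level. PPP2R1A, the other scaffold subunit in the list, was more abundant and had the lower mean under DAC. It had 27.3, 22.7 and 24.9 FPKM against 18.3, 22.1 and 22.9 FPKM (log2 difference -0.23, limma P = 0.105, adjusted P = 0.642, exact permutation P = 0.2). TRIB1, a pseudokinase of the Tribbles family, had 6.06, 13.6 and 9.45 FPKM in the sham group and 17.4, 29.7 and 11.6 FPKM in the DAC group. Sham 2 exceeded DAC 6, so the groups overlapped, and the call (log2 difference 0.91, limma P = 0.0438, adjusted P = 0.584, exact permutation P = 0.2) was lost on leaving out Sham 1, Sham 3, DAC 4 or DAC 5, with log2 differences of 0.64, 0.92, 0.94 and 0.57. It was also lost with the variance of each gene on its own and with sample weights.

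In the TSC and RHEB list, DDIT4 was the 1 of 7 tested genes that was called (8.51% of all genes were), and it fell in the DAC group. Its product REDD1 is a stress-induced inhibitor that acts through the TSC complex. It had 83.1, 90.1 and 78.1 FPKM in the sham group and 53.0, 46.2 and 45.0 FPKM in the DAC group, a wide gap between groups that left no overlap. The log2 difference was -0.79 (SE 0.112, limma P = 0.000186, adjusted P = 0.222, exact permutation P = 0.1) and was called in all 14 alternatives. The direction of DDIT4 was the same as that of TSC1 and TSC2, which did not pass the test. Of the 7 tested genes 4 had the lower mean under DAC, as did 5884 of all 11029 genes, and 3 had the higher. Those 3 were TBC1D7, RHEB and SESN3, with log2 differences of 0.10, 0.0042 and 0.43, and none was called.

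Among the 8 tested partners of the mTOR complexes, TELO2 was the 1 called gene (8.51% of all genes were called). It encodes a subunit of the chaperone complex that stabilizes mTOR and related kinases. It had 5.42, 4.48 and 4.09 FPKM in the sham group and 3.34, 3.48 and 3.96 FPKM in the DAC group, without overlap but with DAC 6 close to Sham 3. The test lay at its threshold (log2 difference -0.30, limma P = 0.0495, adjusted P = 0.586, exact permutation P = 0.1). TELO2 was called in 4 of 13 alternatives, and the call was lost on leaving out Sham 1, Sham 2, DAC 4 or DAC 5, with log2 differences of -0.20, -0.32, -0.26 and -0.28. It was also lost with no filter on FPKM, median scaling, mitochondrially encoded genes left out, the variance of each gene on its own and sample weights.

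None of the 23 tested genes of amino acid sensing and the Rag GTPases passed the test. The smallest P was that of NPRL3, a subunit of GATOR1, the complex that restrains mTORC1 when amino acids are scarce. NPRL3 had 7.31, 5.68 and 7.30 FPKM in the sham group and 5.62, 4.98 and 5.47 FPKM in the DAC group. The groups did not overlap, but Sham 2 lay next to DAC 4 (log2 difference -0.28, limma P = 0.0571, adjusted P = 0.593, exact permutation P = 0.1). It was called without Sham 2 (log2 difference -0.39) and with sample weights (-0.29). The list held 0 to 3 calls over the alternatives, with 3 without Sham 2, 2 with the variance of each gene on its own, and 1 each with sample weights, without Sham 1 and without DAC 6.

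Of the 27 tested substrates of AKT and mTOR 2, ULK1 and NOS3, were called lower (5.27% of all genes were). ULK1, the kinase that starts autophagy and that mTORC1 inhibits, had 23.7, 19.9 and 25.1 FPKM in the sham group and 14.5, 18.5 and 18.8 FPKM in the DAC group. All DAC minipigs were below all sham minipigs (log2 difference -0.39, limma P = 0.0288, adjusted P = 0.555, exact permutation P = 0.1), and the call was lost without Sham 1, Sham 3 or DAC 4, with log2 differences of -0.36, -0.32 and -0.28, and with the variance of each gene on its own. NOS3, the endothelial nitric oxide synthase that AKT activates, had 7.29, 11.5 and 16.6 FPKM in the sham group and 6.31, 7.15 and 7.56 FPKM in the DAC group. Sham 1 lay inside the DAC range and Sham 3 far above it (log2 difference -0.61, limma P = 0.0474, adjusted P = 0.585, exact permutation P = 0.2). The call was lost on leaving out any 1 of Sham 2, Sham 3, DAC 4, DAC 5 or DAC 6, with log2 differences of -0.66 to -0.35. With all minipigs kept it was also lost with median scaling, quantile normalization, mitochondrially encoded genes left out, the variance of each gene on its own and sample weights, so that NOS3 was called in 4 of 14 alternatives. Of 8 endothelial markers 2 were called higher (3.25% of all genes were) and 2 lower (5.27% of all genes were) in the DAC group. KDR and EMCN were higher, with log2 differences of 0.60 and 0.39, and CLDN5 and VWF lower, with -1.22 and -0.49. CLDN5 and VWF were called in all 14 alternatives, KDR in 9 of 14 and EMCN in 9 of 13. The 8 markers summed to 119.4 to 172.7 FPKM in the sham group and 113.7 to 162.5 FPKM in the DAC group.

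FOXO factors are transcription factors that AKT keeps out of the nucleus, and 15 transcripts known to be induced by them were tested. Of these, 3 were called lower (5.27% of all genes were), none was called higher, and 13 had the lower mean under DAC, as did 5884 of all 11029 genes. Their median difference was -0.18 on the log2 scale, against -0.02 over all genes. TXNIP, which inhibits thioredoxin and limits glucose uptake, had 418, 392 and 401 FPKM in the sham group and 320, 349 and 308 FPKM in the DAC group (log2 difference -0.31, limma P = 0.0163, adjusted P = 0.522, exact permutation P = 0.1). GABARAPL1, an autophagosome protein, had 129, 138 and 120 FPKM against 111, 101 and 96.0 FPKM (log2 difference -0.33, limma P = 0.0189, adjusted P = 0.53, exact permutation P = 0.1). BCL6, a transcriptional repressor, had 18.9, 15.2 and 16.4 FPKM against 15.0, 13.1 and 10.8 FPKM (log2 difference -0.36, limma P = 0.0431, adjusted P = 0.584, exact permutation P = 0.1). In each of these genes all DAC minipigs were below all sham minipigs, as in 8.91% of all genes tested. TXNIP lost its call without Sham 1, Sham 3 or DAC 6 (log2 differences -0.28, -0.31 and -0.27), GABARAPL1 without Sham 1, Sham 2 or DAC 6 (-0.33, -0.28 and -0.28), and BCL6 without Sham 1, Sham 3, DAC 5 or DAC 6 (-0.28, -0.38, -0.37 and -0.24). With all minipigs kept, BCL6 was also lost with median scaling, quantile normalization, mitochondrially encoded genes left out and the variance of each gene on its own, and TXNIP and GABARAPL1 with quantile normalization. The number of calls in this list was not stable: it was 0 with quantile normalization and without Sham 1, 1 without DAC 6, 2 without Sham 3 and 5 without DAC 5, while the median difference stayed between -0.29 and -0.12.

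**Figure D5:**
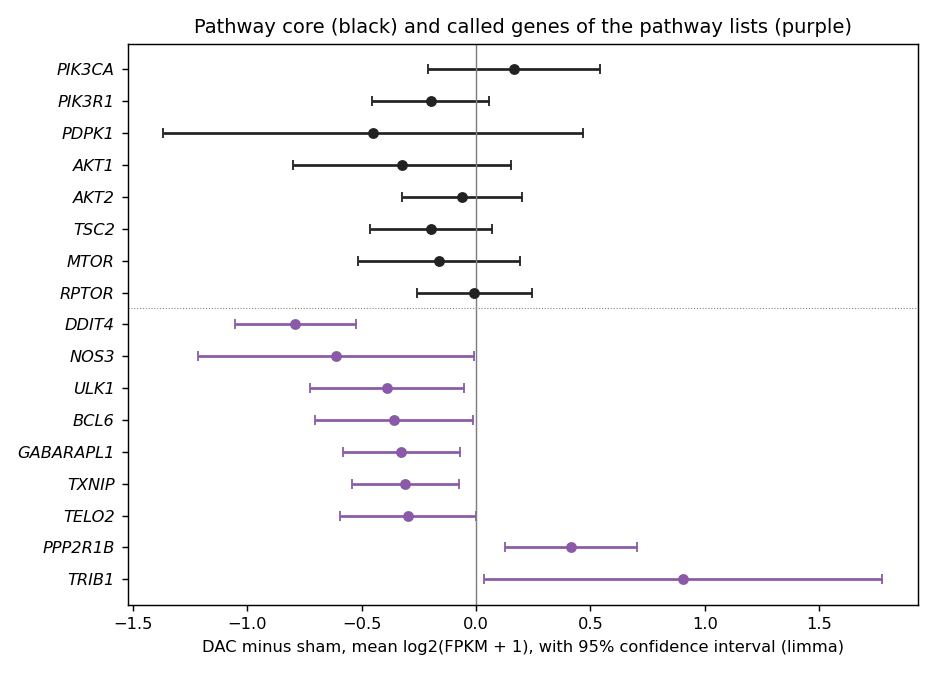
DAC minus sham difference in mean log2(FPKM + 1) with the 95% confidence interval from limma, for the 8 core genes (black) and the 9 called genes of the pathway lists (purple). The intervals of all 8 core genes include 0, and that of DDIT4 lies farthest from it.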

How the data were processed

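RNA sequencing was done on ventricular tissue of 3 sham and 3 DAC minipigs, each animal 1 sample. The authors deposited 1 table of FPKM per gene, with 1 column per minipig. The submitters' processing notes name HISAT2 and the build susScr11 (Sscrofa11.1), and the program that computed FPKM is not given in the sources used here. No gene listed stays below 0.5 FPKM in all samples. For 519 genes without a symbol in the table, the symbol was looked up by Ensembl identifier. Depth is unknown, since no steps of whole reads were visible in the low values.

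Genes reaching 1 FPKM in 3 or more of the 6 samples were tested with limma 3.58.1 in R 4.3.3, on log2(FPKM + 1) with a trended moderated test. Fold changes on this scale understate the change of low genes. Genes were called at an unadjusted P under 0.05, the threshold of the study, and P was adjusted over all 11029 genes by the Benjamini-Hochberg method. Ratios and neighbouring levels were compared by exact two-sided permutation tests. On simulated data 190 of 200 genes changed by 1 log2 unit were called, and 5.4% of unchanged genes. Smaller changes were not simulated, so this does not show how often differences of the size seen in the core genes would be called. Each minipig was left out in turn and 8 other settings were tried. No batch is named in the labels.

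The core genes, the pathway lists and the marker lists were chosen with earlier results of these data known. Named genes were the 8 core genes, the partners in the ratios, the called genes of each list (at most 4, by P) or the gene of smallest P where none was called, and the 3 genes with the pattern nearest to that of PIK3R1. Genes overlapping a core gene and DEPTOR were added after their values were seen. A further gene of the pathway is not reported here and is left out of the list counts.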

Additional observations from a re-analysis of the deposited data

How the results depend on the processing

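Under the 14 alternatives the median difference of the 8 core genes stayed between -0.24 and -0.12 on the log2 scale, and no core gene was called under the 8 settings that kept every minipig. Leaving out 1 minipig gave 0 to 1 called core genes, AKT1 without Sham 2 and PDPK1 without Sham 3. RPTOR turned its sign, to 0.0164 with median scaling, 0.0192 with quantile normalization and 0.0337 without mitochondrially encoded genes, and ranged from -0.0724 to 0.0362 when 1 minipig was left out. Over all genes, the called number was 579 with a minimum of 5 FPKM, of which 165 were higher in the DAC group, and 600 to 1029 when 1 minipig was left out (241 to 470 higher, 359 to 674 lower). The balance of calls was 358 higher and 581 lower as reported, 429 and 479 with median scaling, 418 and 469 with quantile normalization, and 500 and 407 without mitochondrially encoded genes. For the pathway lists, the number called higher was 1 with a minimum of 5 FPKM, 4 with quantile normalization, 1 with sample weights and 1 to 3 when 1 minipig was left out. The number called lower was 4 with quantile normalization, 4 without mitochondrially encoded genes, 4 with the variance of each gene on its own and 4 to 9 when 1 minipig was left out. The order of the 8 levels was kept whichever minipig was left out. The causes of these shifts were not tested. PIK3CA is not among the genes with at least 5 FPKM in 3 samples. No paired analysis was made, because the minipigs were assigned at random to the sham and DAC groups and no pairing is described.

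With 3 minipigs per group, limma's standard errors of the core genes ranged from 0.108 to 0.39 on the log2 scale, and FPKM without depth gives no counting error. The limma P-values set a group difference against the spread between single animals within groups, moderated over all genes. The sign-flip P-values of the order of levels pool all 6 minipigs.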

Other observations

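The make-up of the PI3K subunit families was computed after the data had been seen, as shares of summed FPKM without a test. Among class I catalytic subunits PIK3CA held the largest share in each minipig, from 37.0 to 47.6%. PIK3CG, whose product p110 gamma is known from leukocytes and from signaling by G-protein-coupled receptors, held 35.3, 31.8 and 28.6% in the sham group and 24.1, 22.9 and 27.5% in the DAC group, without overlap. The level of PIK3CG itself overlapped, at 3.77, 3.26 and 2.81 FPKM in the sham group and 2.16, 2.98 and 2.94 FPKM in the DAC group (limma adjusted P = 0.694). The means of PIK3CA and PIK3CB, which share the denominator, were higher in the DAC group, and neither gene passed the test. The leukocyte markers summed to 40.23 to 42.72 FPKM in the sham group and 33.65 to 46.27 FPKM in the DAC group. This sum joins markers that moved in opposite directions: of the 5 tested, 3 had the higher mean under DAC and 2 the lower. The 1 called marker, CD163, was lower, at 11.0, 9.98 and 12.6 FPKM against 9.16, 7.7 and 7.31 FPKM. Its groups did not overlap, with DAC lower as in 8.91% of all genes tested (log2 difference -0.43, exact permutation P = 0.1), and it was called in all 14 alternatives. PIK3R1 held 69.0 to 77.2% of class IA regulatory transcripts, with its highest share in DAC 5, the minipig with the lowest PIK3R3 share of 2.87%.

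DEPTOR, a gene singled out after its values were seen, encodes an inhibitor bound to both mTOR complexes. It had 0.713, 5.13 and 1.10 FPKM in the sham group and 4.36, 4.22 and 0.924 FPKM in the DAC group. High and low minipigs occurred in both groups, the highest level was 7.2 times the lowest, and its spread within groups exceeded that of 99.3% of genes tested (limma adjusted P = 0.851, exact permutation P = 0.9).

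The pattern nearest to that of PIK3R1 over the 6 minipigs was that of CHMP1A, followed by CTRC and ATG2A, with root mean square differences of 0.0178, 0.0232 and 0.0259 between centred log2(FPKM + 1) values. CHMP1A had 9.97, 8.75 and 9.80 FPKM in the sham group and 9.15, 8.34 and 7.61 FPKM in the DAC group. Like PIK3R1, it was highest in Sham 1 and lowest in DAC 6, and its log2 difference of -0.17 did not pass the limma test.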
